A study of Caenorhabditis elegans with 15 samples.

Results

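Alternative 5' splice site (5'ss) events whose sites lie 25 to 50 nt apart were examined in Caenorhabditis elegans strains with mutations in the splicing factors KIN17 and PRCC. An event is a pair of 5'ss that are spliced to the same 3'ss. Of 15261 such 5' events with a percent spliced in (PSI) in all 15 libraries, 1756 (11.5%) had this spacing. They were chosen by the distance between the alternative exon ends, and no value of PSI entered the choice beyond its presence in every library. PSI is given here as the use of the downstream site of the pair, in percent of splicing to either of the 2 sites, so a PSI of 100% means that the upstream site was not used.

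Polyadenylated RNA of mixed-stage whole worms was sequenced from 5 strains, with 3 libraries per strain. All 5 carry smg-4(az152), which disables nonsense-mediated decay (NMD), so that messages with early stop codons are kept. KIN17(K23N) worms are unc-73(e936az30) dxbp-1(az121) and KIN17(M107I) worms are unc-73(az63) dxbp-1(az52), where dxbp-1 encodes KIN17. PRCC(I371F) worms carry prcc-1(az122), and PRCC(null) worms carry prcc-1(gk5556), a deletion of the coding region in which, by the study's methods, a marker cassette stands. The control has smg-4(az152) alone. Worms were grown at 20 degrees on OP50 bacteria. Both KIN17 strains thus also carry unc-73 alleles that the control lacks, and the effect of these alleles cannot be told apart from that of dxbp-1. Library numbers run from 1 to 9 for KIN17(K23N), PRCC(I371F) and the control, and from 24 to 29 for KIN17(M107I) and PRCC(null), so for these last strains the numbered set cannot be told apart from the genotype.

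The 5'ss marks the start of an intron, nearly always with the bases GU. It is first bound by the U1 snRNP and is later handed over to U6, and proteins that join the spliceosome between these steps can influence which of several nearby GU, or GU-like, sites is cut. KIN17 is a conserved nucleic acid binding protein with zinc finger, winged-helix and SH3-like domains, and PRCC is a largely disordered protein named for its fusions in papillary renal cell carcinoma. Both have been found in spliceosomal complexes. When 2 alternative 5'ss differ by a multiple of 3 nt the reading frame after the exon is kept, and otherwise it shifts.

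At 9 of the 1756 events a 5'ss also belonged to a close pair named in the study's supplementary list, which gives the letters at the intron start. That list holds events that the study called as changed from the control in these same libraries. Differences within its close pairs, and their p-values, are therefore not independent of that choice. Those of 7 of the events are printed here, where events on the same intron share a stretch, and those of trak-1 are not. The sequences are shown because they place a second, rarer 5'ss within a few bases of a site that the widely spaced event uses, which is the arrangement the results below turn on. Each runs 5' to 3' from the first base of the intron defined by the upstream site of the close pair, on ce10 coordinates. The 2 capitals are the first 2 bases of the intron that the downstream site of the close pair defines.
mans-3: gTTggatatattc
R11H6.4: gTTagttttgtat
F35H10.10: gtaGCaaaattaa
Y48C3A.12: gtGCgagtagata
no annotated gene: gTTaattcggaga
The mans-3 stretch lies at chrX:5165645-5165657 on the plus strand and the R11H6.4 stretch at chrV:14610246-14610258 on the plus strand. The F35H10.10 stretch lies at chrIV:8312733-8312745 on the minus strand, the Y48C3A.12 stretch at chrII:13387496-13387508 on the plus strand, and the stretch with no annotated gene at chrIII:11113663-11113675 on the minus strand. In mans-3, R11H6.4 and the stretch with no gene the shift by 1 nt gives an intron that starts with TT in place of GT, and in F35H10.10 and Y48C3A.12 the downstream site gives one that starts with GC.

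The 1756 events covered every distance in the range. The most frequent distances were 27 and 36 nt, with 93 events each, and the least frequent were 44 and 48 nt, with 49 events each. A multiple of 3 nt separated the sites of 585 events (33.3%). The events used 1421 different 3'ss, of which 1184 held a single event and the fullest held 9, so events on a shared 3'ss are not independent. Introns measured from the upstream site had a median length of 241 nt, from 60 to 8576 nt. Measured from the downstream site the median was 207 nt and the shortest was 27 nt, and 11 events would leave an intron under 40 nt.

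In the control, most of these events were nearly fixed on a single site. The downstream site had a mean PSI of at least 95% in 708 events (40.3%) and under 5% in 460 events (26.2%). The remaining 588 events (33.5%) used both sites to a visible extent, against 12.9% of the 5' events with sites 1 to 24 nt apart. Events were listed from reads pooled over all strains, so both sets can hold sites that only mutant strains use. The part of this listing in the contrast was not tested. Where the distance kept the reading frame, the mean control PSI over events was 50.9%, and where it did not, 60.6%. The medians over events were 46.0% and 91.3%. By library the means were 52.2, 49.8 and 50.8% against 60.5, 60.4 and 60.96% in control replicates 1, 2 and 3. The replicates measure the same events again, so these values show the noise between libraries and not the spread between events. Whether the 2 sets of events differ was not tested. Events whose intron was under 60 nt from the downstream site used that site at a mean of 66.6% in the control (486 events), those from 60 to under 200 nt at 54.9% (381 events) and those of 200 nt or more at 53.4% (889 events).

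**Figure D1:**
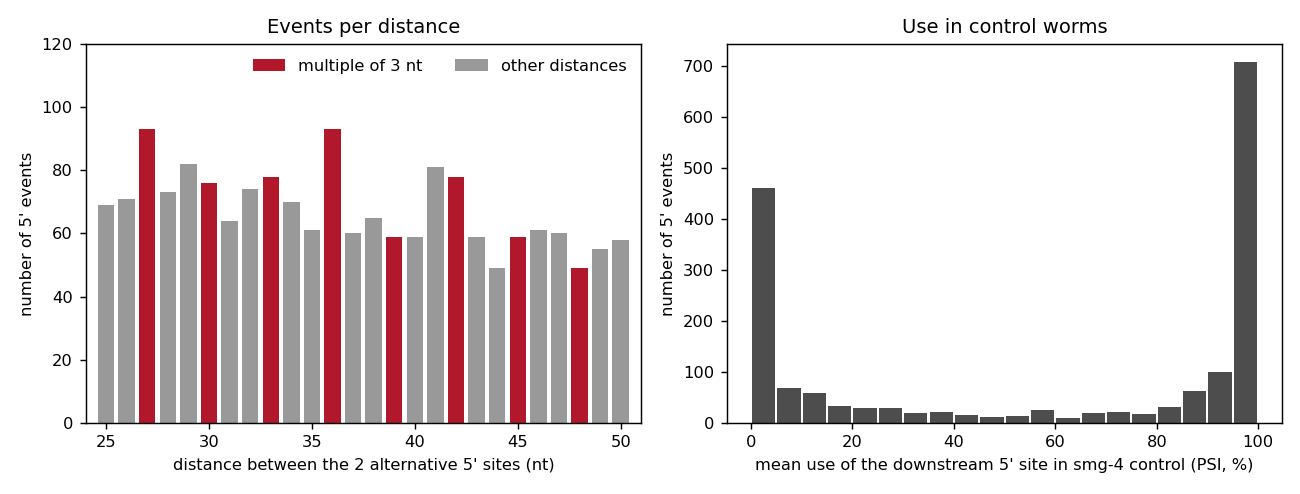
The left panel gives the number of 5' events (y axis) at each distance between their 2 sites in nt (x axis), with multiples of 3 nt in red. The right panel gives the number of events by the mean use of the downstream site in the 3 control libraries, in steps of 5% PSI: 708 events lie in the highest step and 460 in the lowest.

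Averaged over the 1756 events, use of the downstream site differed little between strains. The mean PSI was 57.5% ± 0.36 and 57.8% ± 0.064 in the KIN17 strains K23N and M107I, 58.1% ± 0.24 and 58.3% ± 0.34 in the PRCC strains I371F and null, and 57.4% ± 0.48 in the control (SD, n = 3 each). The PRCC(null) libraries, from 57.9 to 58.6%, and the PRCC(I371F) libraries, from 57.8 to 58.3%, lay above the control libraries, which ranged from 56.9 to 57.8%, while both KIN17 strains overlapped the control. The highest control library had 57.76% and the lowest PRCC(I371F) library 57.85%. The median event moved by 0.047% in PRCC(null), where 903 events were higher and 787 lower than in the control, and by 0% in the other strains. Over all 15261 events the median was 0.302% in PRCC(null), 0.149% in PRCC(I371F) and 0% in both KIN17 strains.

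Replicates differed more at these events than at closely spaced ones. The mean absolute difference between replicates was 5.71 to 6.16% per strain, against 2.36 to 3.21% at events with sites 1 to 24 nt apart. The mean absolute difference from the control was 5.16% in PRCC(null), 4.74% in PRCC(I371F), 4.26% in KIN17(M107I) and 4.39% in KIN17(K23N). These are differences between means of 3 libraries and are not on the same footing as the differences between single libraries. Exact PSI of 0 or 100% made up 38.3% ± 1.7 of the values in PRCC(null) libraries and 44.5% ± 2.3 in control libraries (SD, n = 3 each). At events 1 to 24 nt apart the same shares were 31.8% ± 0.87 in PRCC(null) and 67.3% ± 1.3 in the control. Because the files hold no read numbers for single events, the depth is unknown and PSI values are given without intervals.

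2 criteria were used to call a difference from the control. The pairwise rule, taken from the study's methods, asks that all 9 differences between a mutant and a control library exceed 15% in the same direction and that their mean exceed 20%. The second criterion was an adjusted p under 0.05 from limma over all 15261 events, with a mean difference over 20%. The pairwise rule has no term for the spread between replicates, which was larger at these events than at closely spaced ones. The part of that spread in the shares below was not tested. By the pairwise rule 16 of the 1756 events (0.911%) passed in KIN17(K23N), where 0.328% of all 5' events did, and 13 (0.74%) passed in KIN17(M107I), against 0.374% of all. In PRCC(I371F) 28 events (1.59%) passed, against 1.31% of all, and in PRCC(null) 39 (2.22%), against 1.55% of all. The downstream site gained in 24 events of PRCC(null) and the upstream site in 15, where 1.17% and 0.38% of all 5' events passed in these directions. In PRCC(I371F) the numbers were 18 and 10, against 0.898% and 0.413% of all. In KIN17(M107I) they were 7 and 6, against 0.183% and 0.19%, and in KIN17(K23N) 8 and 8, against 0.183% and 0.144%.

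By limma, 3 of the events were called in KIN17(K23N) and 2 in KIN17(M107I), and 0.0983% of all 5' events were called in each strain. In PRCC(I371F) limma called 23 events, against 1.23% of all, and in PRCC(null) 38 events, against 1.59% of all. The members called made up 1.31% and 2.16% of the 1756 in the PRCC strains. Both criteria were met by 32 events in PRCC(null), against 1.32% of all 5' events, by 19 in PRCC(I371F), against 1.04%, by 2 in KIN17(M107I), against 0.0917%, and by 3 in KIN17(K23N), against 0.0983%. The calls in the KIN17 strains moved with single libraries. Leaving out control replicate 3 gave 7 limma calls in KIN17(K23N) in place of 3, and leaving out KIN17(M107I) replicate 1 gave 0 in KIN17(M107I) in place of 2. There, 1 call was left without control replicate 1 or 2, KIN17(M107I) replicate 3, PRCC(I371F) replicate 1 or 2 or PRCC(null) replicate 1 or 2, since all libraries share the fit.

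An adjusted p under 0.05 from limma was reached, whatever the size of the difference, by 52 of the 1756 events in PRCC(I371F) (2.96%, against 13.7% of all 5' events) and by 100 in PRCC(null) (5.69%, against 22.9% of all). In KIN17(K23N) 4 events reached it, against 0.616% of all, and in KIN17(M107I) 2 events, against 0.695% of all. By adjusted p alone the percentages of widely spaced events were below those of all events in each mutant strain. With a difference over 20% required, they were 2.16% against 1.59% in PRCC(null) and, on 3 events, 0.171% against 0.0983% in KIN17(K23N). They were close to all events in PRCC(I371F) (1.31% against 1.23%) and KIN17(M107I) (0.114% against 0.0983%). None of these contrasts was tested.

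**Figure D2:**
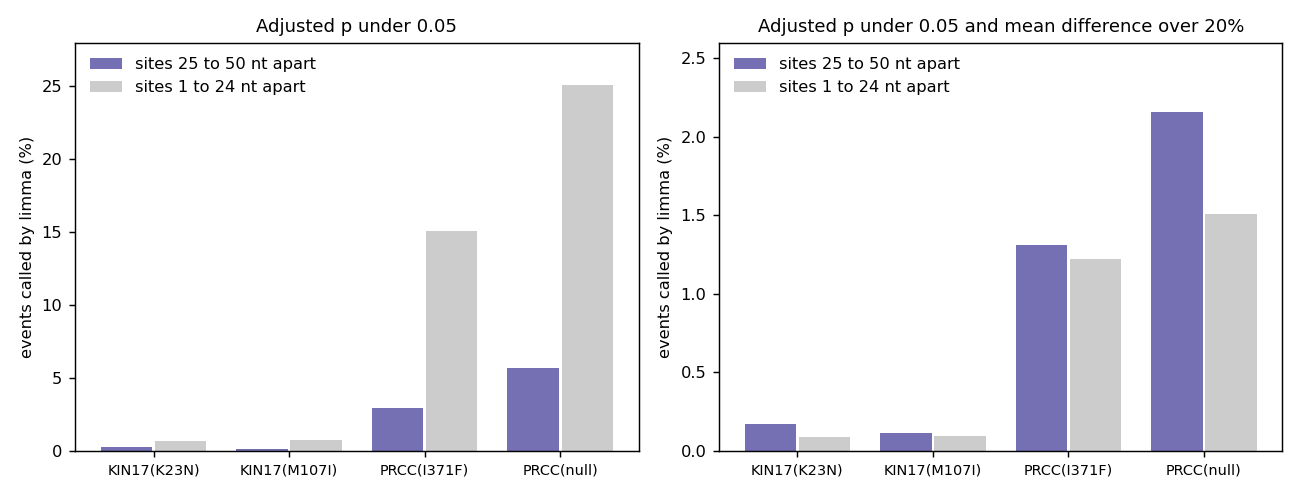
Percent of 5' events called by limma (y axis) in each mutant strain against the control, for events with sites 25 to 50 nt apart and with sites 1 to 24 nt apart. With the adjusted p alone (left) PRCC(null) reaches 5.69% against 25.1%, and with a mean difference over 20% added (right) 2.16% against 1.51%.

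Calls were found at distances throughout the range. By the pairwise rule in PRCC(null), 14 of 680 events at 25 to 33 nt (2.06%), 12 of 548 at 34 to 41 nt (2.19%) and 13 of 528 at 42 to 50 nt (2.46%) changed, where 1.55% of all 5' events did. Of the events with a multiple of 3 nt between their sites 3.08% changed in PRCC(null), against 1.79% of the others. In KIN17(K23N) these shares were 1.71% and 0.512%, in KIN17(M107I) 0.684% and 0.769%, and in PRCC(I371F) 1.71% and 1.54%. The share called in PRCC(null) was 2.26% for introns under 60 nt from the downstream site, 2.36% at 60 to under 200 nt and 2.14% at 200 nt or more. At the edge of the spacing range, 0 of 72 events at 24 nt and 1 of 69 at 25 nt passed the pairwise rule in PRCC(null).

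Changed events often had a further 5'ss right beside a site of their own. A further 5'ss within 4 nt of either site, spliced to the same 3'ss, was present at 483 of the 1756 events (27.5%). This class and its limit of 4 nt were chosen after the values were seen. It made up 27 of the 39 events past the pairwise rule in PRCC(null), 20 of 28 in PRCC(I371F), 7 of 13 in KIN17(M107I) and 9 of 16 in KIN17(K23N). Among limma calls it made up 17 of 23 in PRCC(I371F) and 26 of 38 in PRCC(null). Expressed the other way, 5.59% of the events with such a site passed the rule in PRCC(null) and 0.943% of those without. Events were listed from reads pooled over all strains. A site used only in mutant strains can thus place an event both in this class and among the calls. These shares are therefore not independent of the calls.

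**Figure D3:**
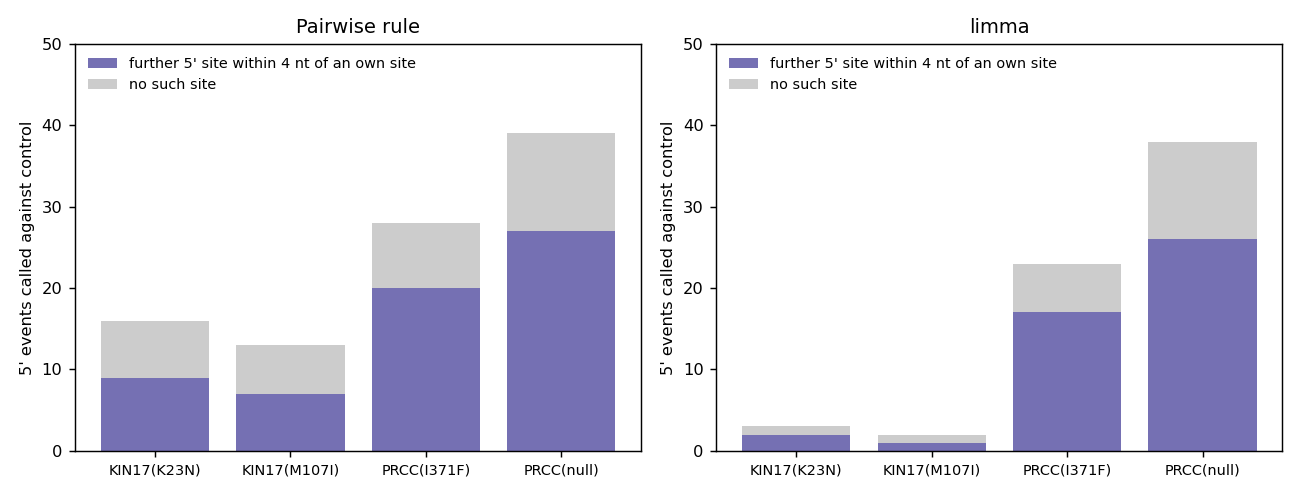
Number of widely spaced 5' events called against the control (y axis) in each mutant strain, by the pairwise rule (left) and by limma (right). The lower part of each bar holds events with a further 5'ss within 4 nt of a site of their own, 27 of 39 by the rule in PRCC(null).

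In a smaller class the further site was the main one. At 100 of the 1756 events (5.69%) the further site was used more than the site beside it and more than the far site in the control, so that the widely spaced event compared a pair of minor sites. This class held 23 of the 39 events past the rule in PRCC(null), 18 of 28 in PRCC(I371F), 6 of 13 in KIN17(M107I) and 9 of 16 in KIN17(K23N). In PRCC(I371F) and PRCC(null) the site that gained was in all 18 and all 23 of them the minor site 1 to 4 nt downstream of the main site, and in KIN17(K23N) this held for 8 of 9 and in KIN17(M107I) for 6 of 6. In both PRCC strains the median control use of these gaining sites within the close pair was 0%. A site without use in the control can only gain, so these counts were partly fixed by how events were listed. Over the whole class of 100 events the minor site lay downstream of the main site in 61 and upstream in 40, with 1 event counted in both. The gaining site lay exactly 1 nt downstream in 14 of the 23 events in PRCC(null) and in 11 of the 18 in PRCC(I371F).

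The change within the close pair was smaller than the move of the widely spaced PSI. At the 23 events of PRCC(null) the gaining site took a median of 6.48% of splicing within the close pair, from 0.186 to 25.3%, against a median of 0% and at most 2.17% in the control. The main site took a median of 98.2% against the far site in PRCC(null) and of 98.8% in the control. In PRCC(I371F) the medians were 2.25% within the close pair, against 0% in the control, and 99.0% for the main site against the far site, against 98.6% in the control. At these introns the widely spaced PSI was the balance of 2 minor sites. A minor site with no use in any control library entered the event list only through reads of mutant strains. For such sites a gain over the control was set by that filter, and p-values for the gain are no separate support. Events described below with such a site include A5.001515, A5.009485, A5.012341, A5.014404, A5.014407, A5.015499, A5.016367, A5.017929 and A5.018506.

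An event on chromosome III, A5.009162, passed the pairwise rule in all 4 mutant strains and limma in all 4. Its sites are at 8193182 and 8193227 on the plus strand, 45 nt apart, with the 3'ss at 8193399. PSI was 100, 100 and 100% in KIN17(K23N), 100, 100 and 72.7% in KIN17(M107I), 100, 97.2 and 100% in PRCC(I371F) and 100, 95.3 and 100% in PRCC(null), against 0, 0 and 50% in the control. No mutant library fell within the control range. The differences were 83.3, 74.2, 82.4 and 81.8%, with limma adjusted p of 0.0174, 0.0425, 0.00209 and 0.0013. In KIN17(K23N) the limma call was lost without any of 5 libraries (control replicates 1 and 2 and all 3 KIN17(K23N) replicates, adjusted p from 0.0548 to 0.0778), and in KIN17(M107I) without any of 4 (control replicates 1 and 2 and KIN17(M107I) replicates 1 and 2, adjusted p from 0.144 to 0.164) and with an offset of 0.001 in the log ratio (adjusted p = 0.0534).

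The main 5'ss of this intron is at 8193226, 1 nt upstream of the site that gained. Within that close pair the downstream site took 2.85, 4.3 and 4.78% in KIN17(K23N), 2.22, 2.19 and 4.02% in KIN17(M107I), 19.6, 16.1 and 8.94% in PRCC(I371F) and 18.8, 17.4 and 15.3% in PRCC(null), against 0, 0 and 0.893% in the control. These groups did not overlap either. The main site took 98.5 to 100% against the far site in every mutant library and 98.8 to 99.3% in the control libraries.

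Event A5.012078 on chromosome IV had the same arrangement. Its sites are at 6641921 and 6641966 on the plus strand, 45 nt apart. PSI was 66.7, 100 and 100% in KIN17(K23N), 100, 100 and 90.9% in KIN17(M107I), 93.7, 92.1 and 100% in PRCC(I371F) and 94, 97.5 and 95.5% in PRCC(null), against 50, 0 and 0% in the control. All 4 strains passed the pairwise rule, while limma called PRCC(I371F) and PRCC(null) (adjusted p = 0.00907 and 0.00698) and not KIN17(K23N) or KIN17(M107I) (adjusted p = 0.0802 and 0.0502). The site that gained lies 3 nt downstream of the main 5'ss at 6641963, and within that pair it took 10.9, 9.59 and 10.8% in PRCC(I371F) and 10.6, 16.7 and 14% in PRCC(null), against 0.845, 0 and 0% in the control.

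Event A5.017929 on chromosome V, with sites at 18024072 and 18024112 on the plus strand, 40 nt apart, passed the rule in 3 strains. Its PSI was 25, 33.3 and 50% in KIN17(K23N), 60, 12.5 and 50% in KIN17(M107I), 100, 100 and 69.2% in PRCC(I371F) and 80, 80 and 73.9% in PRCC(null), against 0% in each control library. By limma the PRCC strains were called (differences of 89.7 and 78.0%, adjusted p = 0.000132 and 0.000481) and the KIN17 strains were not. Beside it the main 5'ss at 18024110 kept 97.0 to 100% against the far site in PRCC(I371F) and 97.2 to 98.5% in PRCC(null), against 96.4 to 98.3% in the control. Within the 2 nt pair the gaining site took 4.23, 5.49 and 6.43% in PRCC(I371F) and 10.2, 5.83 and 6.83% in PRCC(null), against 0% in each control library.

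Both PRCC strains also shared a large change in trak-1, which encodes a member of the TRAK family of kinesin adaptors. Event A5.001515 has its sites at 6125690 and 6125725 on chromosome I, plus strand, 35 nt apart. PSI was 12.5, 0 and 44.4% in KIN17(K23N), 50, 14.3 and 50% in KIN17(M107I), 90, 94.1 and 100% in PRCC(I371F) and 85.4, 94.3 and 91.7% in PRCC(null), against 0% in each control library. The PRCC libraries all lay above the KIN17 and control libraries, and the limma adjusted p was 0.000266 for PRCC(I371F) and 0.000282 for PRCC(null). The neighbouring event A5.001514, which has the same far site and the main 5'ss at 6125722, 3 nt upstream, did not pass in any strain, with 93.4 to 98.2% in PRCC(null) and 98.2 to 99.2% in the control. Within the 3 nt pair the downstream site took 8.22, 7.8 and 9.39% in PRCC(I371F) and 29.3, 23.6 and 23.1% in PRCC(null), against 0% in each control library (limma adjusted p = 0.000208 and 4.5e-06). In PRCC(null) this close pair passed both criteria itself. The pair is on the study's list of events changed in these same libraries, and its downstream site was listed only through mutant reads. These values are thus no separate evidence.

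**Figure D4:**
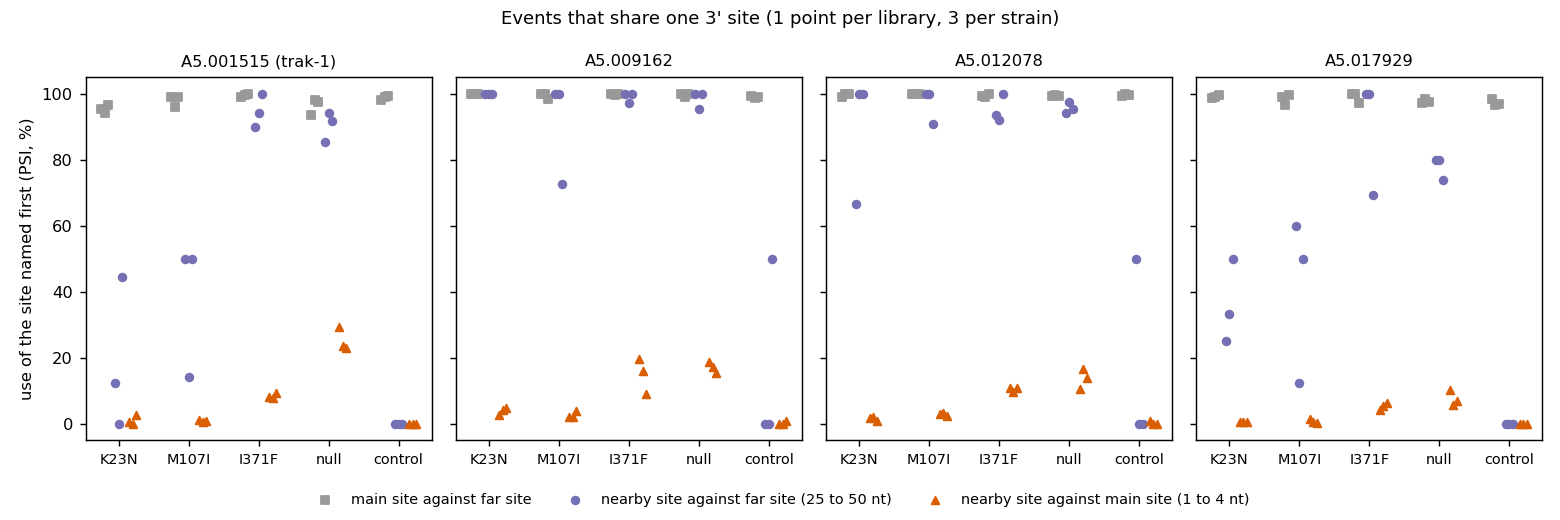
Use of the site named first in percent PSI (y axis) for 3 events per intron that share a 3'ss, with 1 point per library and the strains along the x axis, control last. Squares give the main site against the far site, circles the nearby minor site against the far site 25 to 50 nt away, and triangles the nearby minor site against the main site. The circles span 0 to 100%, while the squares stay above 93% and the triangles below 30%.

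At mans-3, an alpha-mannosidase gene, both widely spaced events use a far site at 5165613 on chromosome X, plus strand. Event A5.019066, 33 nt, had a PSI of 0, 80 and 50% in KIN17(K23N), 100, 75 and 62.5% in KIN17(M107I), 86.2, 82.5 and 83.3% in PRCC(I371F) and 55.6, 63.6 and 80% in PRCC(null), against 33.3, 0 and 0% in the control. It passed the pairwise rule in KIN17(M107I), PRCC(I371F) and PRCC(null), and limma called none of them (adjusted p = 0.245, 0.059 and 0.089). Event A5.019065, 32 nt, with the main GT site, had 93.2 to 95.7% in PRCC(I371F), 92.3 to 97.8% in PRCC(null) and 98.0 to 98.4% in the control, and passed neither criterion in any strain. Between the GT and the TT site of the printed sequence, the TT site took 22.1, 25.6 and 22.2% in PRCC(I371F) and 9.43, 6.86 and 8.16% in PRCC(null), against 0.806, 0 and 0% in the control (limma adjusted p = 0.000273 and 0.00264). In PRCC(I371F) this close pair passed both criteria itself. The pair is on the study's list of events changed in these same libraries, so these values are no separate evidence.

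The other listed positions gave widely spaced events that passed neither criterion in any strain. In R11H6.4 the event with the TT site (A5.017481, 39 nt) had 100, 80 and 50% in KIN17(K23N), 100% in each KIN17(M107I) library, 97.1, 97 and 100% in PRCC(I371F) and 100, 93.3 and 81.8% in PRCC(null), against 66.7, 60 and 100% in the control, and every strain overlapped the control. The event with the GT site (A5.017480, 38 nt) had 97.8 to 100% in every library. Events A5.006705 in Y48C3A.12 (35 nt) and A5.012580 in F35H10.10 (37 nt) had at least 96.4% and 97.5% in every library, and A5.010099, with no annotated gene (28 nt), had at most 3.45%. Within their close pairs the PRCC strains did differ from the control, but the list was drawn from changes in these same libraries. These differences are thus no separate evidence. At Y48C3A.12 the upstream GT site took 62.5, 56.6 and 57% in PRCC(I371F) and 53.3, 60 and 52.8% in PRCC(null), against 96.8, 100 and 98.6% in the control. An event in M88.5 (A5.007939, 42 nt), which shares a splice site with a listed alternative 3' event, had 96.6 to 100% in every library. No ribosomal protein gene and no splicing factor gene was among the 6 genes that could be named in this way, and the files pair no other of the 1756 events with a gene.

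Use of the upstream site gained at a further group of events with a close neighbour. Event A5.011556 on chromosome IV, minus strand, has sites at 3338374 and 3338347, 27 nt apart. Its downstream-site PSI was 14.3, 0 and 33.3% in KIN17(K23N), 30, 69.2 and 47.1% in KIN17(M107I), 11.8, 29 and 10.8% in PRCC(I371F) and 4.82, 13 and 8.47% in PRCC(null), against 100, 100 and 60% in the control. It passed the rule in KIN17(K23N), PRCC(I371F) and PRCC(null), and limma gave adjusted p of 0.068, 0.0152 and 0.00422 there. The call in PRCC(I371F) was lost without control replicate 1 or 2 (adjusted p = 0.0678 and 0.0694). The upstream site, which gained, lies 1 nt downstream of the main 5'ss at 3338375, and within that pair it took 4.29, 4.26 and 5.65% in PRCC(I371F) and 12.9, 11.2 and 9.98% in PRCC(null), against 0, 0 and 0.445% in the control.

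Event A5.014048 on chromosome IV, minus strand, with sites at 13239996 and 13239955, 41 nt apart, had a PSI of 45.3, 51 and 56.4% in KIN17(K23N), 64.4, 65.6 and 66.7% in KIN17(M107I), 53.7, 38.2 and 51.7% in PRCC(I371F) and 25, 25.4 and 32.8% in PRCC(null), against 86.8, 81 and 81.8% in the control. All 12 mutant libraries were below all 3 control libraries. The rule and limma called KIN17(K23N), PRCC(I371F) and PRCC(null), with differences of -32.3, -35.4 and -55.5% and limma adjusted p of 0.0128, 0.000589 and 1.35e-05. Without control replicate 1 the KIN17(K23N) value was adjusted p = 0.0543. This intron has 9 alternative 5'ss. The site that gained is 4 nt downstream of a main site at 13240000, and within that pair it took 0.965, 1.15 and 0.948% in PRCC(I371F) and 2.46, 2.6 and 2.28% in PRCC(null), against 0.127, 0.112 and 0.201% in the control.

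Event A5.015499 on chromosome V, minus strand, with sites at 6664129 and 6664097, 32 nt apart, had a PSI of 33.3, 33.3 and 100% in KIN17(K23N), 33.3, 50 and 33.3% in KIN17(M107I), 40, 37.5 and 12.5% in PRCC(I371F) and 28.6, 18.2 and 21.1% in PRCC(null), against 100% in each control library. It passed the rule in KIN17(M107I), PRCC(I371F) and PRCC(null) and limma in the PRCC strains (adjusted p = 0.0052 and 0.00211). Event A5.012341 on chromosome IV, minus strand, 7746846 and 7746811, 35 nt, was at 100% in each KIN17(K23N) library, 33.3, 33.3 and 66.7% in KIN17(M107I), 66.7, 0 and 71.4% in PRCC(I371F) and 75, 12.5 and 0% in PRCC(null), against 100% in each control library. It passed the rule in the same 3 strains and limma in PRCC(I371F) and PRCC(null) (adjusted p = 0.0239 and 0.00722). The PRCC(I371F) call did not hold without any single control replicate or without PRCC(I371F) replicate 2 (adjusted p from 0.0647 to 0.0683), nor with an offset of 0.05 in the log ratio (adjusted p = 0.0509). In both events the gaining upstream site lies 1 nt downstream of a main 5'ss, within which pair it took at most 3.96% in any library.

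Event A5.016367 on chromosome V, minus strand, 10460614 and 10460565, 49 nt, passed the rule in KIN17(M107I), PRCC(I371F) and PRCC(null). It was at 60, 100 and 0% in KIN17(K23N), 60, 0 and 0% in KIN17(M107I), 66.7, 0 and 20% in PRCC(I371F) and 28.6, 16.7 and 0% in PRCC(null), against 100% in each control library. Limma called it in PRCC(null) alone (adjusted p = 0.0386), and this call was lost without any single library of the 6 compared (adjusted p from 0.0511 to 0.131). The wide scatter of the mutant libraries stood beside a control fixed at 100%.

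Event A5.014407 on chromosome IV, minus strand, 15525647 and 15525618, 29 nt, was at 58.3, 25 and 11.1% in PRCC(I371F) and 22.2, 9.09 and 23.5% in PRCC(null), against 100% in each library of both KIN17 strains and of the control. The limma adjusted p was 2.32e-05 for PRCC(I371F) and 3.89e-06 for PRCC(null). A further widely spaced event, A5.014404, has the gaining site 15525647 as its downstream site and 15525694 as its far site, 47 nt away, and was at 25, 16.7 and 42.1% in PRCC(I371F) and 41.2, 29.4 and 44.8% in PRCC(null), against 0% in all KIN17 and control libraries. The same site thus gained in both directions of PSI, so the 2 events are not separate evidence. With no use in any KIN17 or control library, this site was listed only through reads of the PRCC strains. Its gain over the control was set by that filter, and the p-values above are no separate support. The gaining site lies 1 nt downstream of the main site at 15525648, and within that pair it took 1.24, 0.769 and 2.24% in PRCC(I371F) and 2.26, 2.7 and 3.39% in PRCC(null), against 0% in each control library. Event A5.009485 on chromosome III, plus strand, 9468806 and 9468845, 39 nt, was at 0% in each KIN17(K23N) library, 50, 0 and 0% in KIN17(M107I), 83.3, 80 and 66.7% in PRCC(I371F) and 38.5, 57.1 and 50% in PRCC(null), against 0% in each control library (limma adjusted p = 0.00141 and 0.00378). The downstream site of A5.009485 had no use in any control library either, so it was listed only through mutant reads and the same limit applies. A5.014404 was chosen after its values were seen.

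Event A5.004379, which had no close neighbour, passed both criteria in all 4 mutant strains. It lies on chromosome II, plus strand, with sites at 3969426 and 3969467, 41 nt apart, and the 3'ss at 3970031. These 2 sites were the only 5'ss scored for that 3'ss. The downstream site took 76.3, 66 and 59.6% in KIN17(K23N), 67.9, 76 and 66.3% in KIN17(M107I), 50, 54.1 and 53.8% in PRCC(I371F) and 76.8, 54.7 and 72.7% in PRCC(null), against 18.8, 31.8 and 33.3% in the control. Each of the 12 mutant libraries was above each control library. The differences were 39.4, 42.1, 24.7 and 40.1%, or 2.42 ± 0.46, 2.58 ± 0.46, 1.52 ± 0.46 and 2.48 ± 0.46 on the log2 ratio scale (SE), with limma adjusted p of 0.041, 0.025, 0.0489 and 0.00178.

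The PRCC(null) call of A5.004379 held with every library left out in turn, and the other 3 calls did not. Without any single library of the 6 compared, the limma adjusted p lay between 0.0573 and 0.142 in KIN17(K23N), between 0.051 and 0.0969 in KIN17(M107I) and between 0.063 and 0.183 in PRCC(I371F). The KIN17(K23N) call was also lost with an offset of 0.001 or 0.05 in place of 0.01 in the log ratio (adjusted p = 0.0511 and 0.0529), and the PRCC(I371F) call with an offset of 0.001 (adjusted p = 0.0743). The exact permutation test over the 6 libraries gave p = 0.1 in each strain, the smallest value that 3 against 3 libraries allow, as it did for every event called here. All 4 comparisons share the control libraries.

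**Figure D5:**
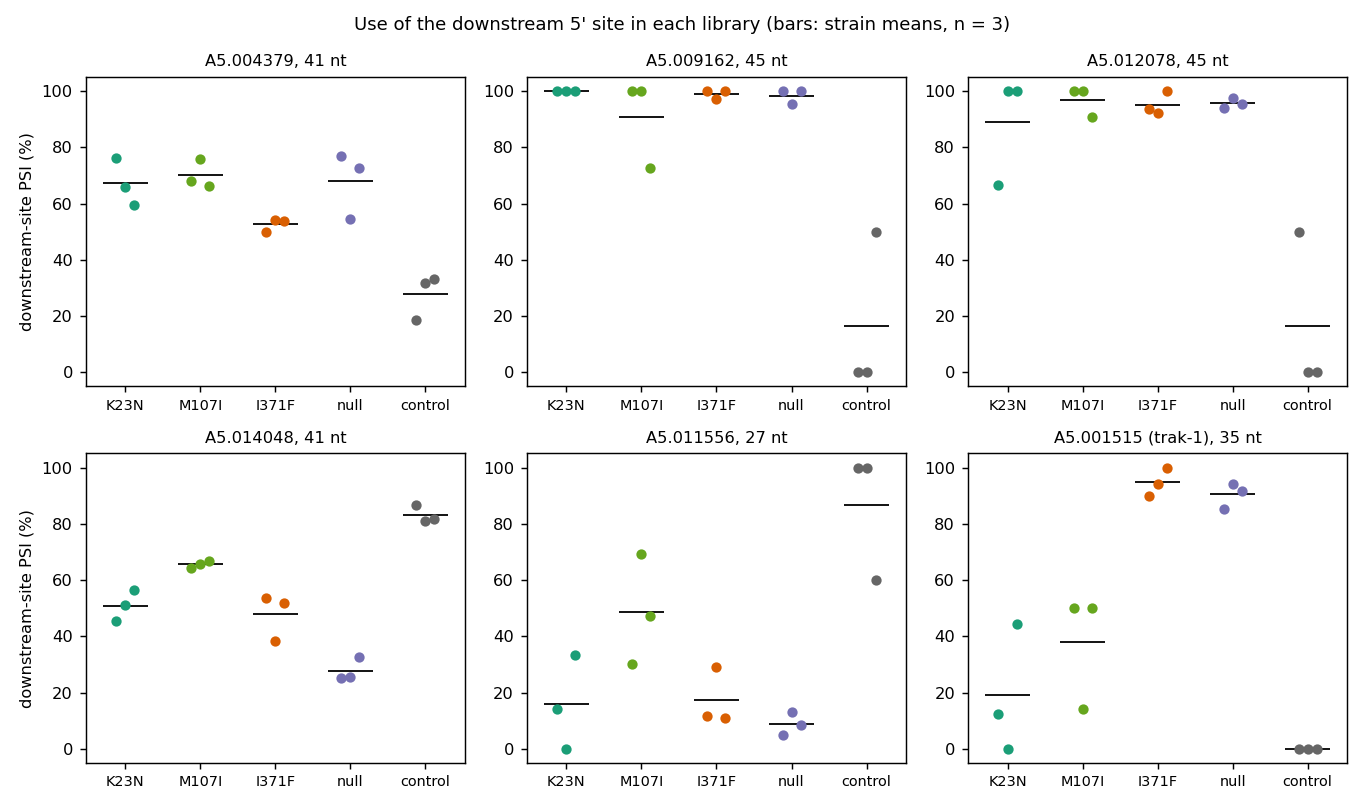
Downstream-site PSI in percent (y axis) in each library of 6 widely spaced 5' events, with the mutant strains left of the control and a bar at each strain mean (n = 3). In A5.004379, A5.009162 and A5.012078 all mutant libraries lie above the control libraries, in A5.014048 all lie below, in A5.011556 the PRCC libraries lie between 4.82 and 29% against 60 to 100% in the control, and in trak-1 they lie between 85.4 and 100% against 0%.

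Further events without a close neighbour, chosen after their values were seen, changed in the PRCC strains. On chromosome I, minus strand, 6 sites are spliced to the 3'ss at 2687122, and those at 2687828, 2687799 and 2687753 form 2 of the events considered here. The first, A5.000489 (29 nt), was at 65.1, 56.4 and 48.5% in KIN17(K23N), 45.5, 58.3 and 58% in KIN17(M107I), 26.9, 23.1 and 17.1% in PRCC(I371F) and 38.9, 42.5 and 41% in PRCC(null), against 58.6, 63.1 and 66.1% in the control (limma adjusted p = 0.000579 and 0.0232). The next, A5.000490 (46 nt), was at 62.7, 56.9 and 71.4% in KIN17(K23N), 67.2, 71.2 and 55.1% in KIN17(M107I), 79.4, 88.9 and 86.4% in PRCC(I371F) and 88.3, 71.2 and 78.1% in PRCC(null), against 47.3, 44.4 and 45.6% in the control (limma adjusted p = 0.00181 and 0.0038). The site at 2687799 lost use against either neighbour. For A5.000489 in PRCC(null) the call was lost without control replicate 2 or 3 or PRCC(null) replicate 1 or 3 (adjusted p from 0.0506 to 0.0795).

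Event A5.007073 on chromosome III, minus strand, 455088 and 455043, 45 nt, was at 40, 50 and 53.8% in KIN17(K23N), 52.2, 39.5 and 45.5% in KIN17(M107I), 47.1, 53.2 and 56.1% in PRCC(I371F) and 63.6, 67.5 and 55.9% in PRCC(null), against 24.4, 35.9 and 25.9% in the control. The PRCC(null) difference was 33.6% (limma adjusted p = 0.0014). Event A5.020441 on chromosome X, minus strand, 15858606 and 15858570, 36 nt, was at 62.5, 66.7 and 50% in KIN17(K23N), 22.2, 58.8 and 78.6% in KIN17(M107I), 77.8, 75 and 50% in PRCC(I371F) and 45, 38.5 and 63.6% in PRCC(null), against 100, 84.6 and 100% in the control. The PRCC(null) difference was -45.8% (limma adjusted p = 0.00549). Both also passed limma in PRCC(I371F), with differences of 23.4 and -27.3% (limma adjusted p = 0.0202 and 0.0343). For A5.007073 that call was lost without control replicate 1 or 3 or PRCC(I371F) replicate 2 or 3 (adjusted p from 0.0553 to 0.0776), and for A5.020441 without control replicate 1 or 3 or any PRCC(I371F) replicate (adjusted p from 0.0501 to 0.138) and with an offset of 0.05 in the log ratio (adjusted p = 0.0721). These introns had no other 5'ss scored. Of the 39 events past the rule in PRCC(null), 12 had no further site within 4 nt, and the downstream site gained in 8 of them. In PRCC(I371F) this was so for 8 of 28, with 5 towards the downstream site.

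The largest difference in KIN17(K23N) that passed the rule and not limma, tied in size with A5.009162, was at event A5.000365 on chromosome I, minus strand, 1956923 and 1956896, 27 nt. It was at 0% in each KIN17(K23N) library, against 50, 100 and 100% in the control (limma adjusted p = 0.12). In the other strains it scattered between 0 and 100%. The values 33.3, 50 and 66.7% made up 16.7% of the PSI of the 16 rule events in the KIN17(K23N) and control libraries and 23.1% at the 13 rule events of KIN17(M107I), against 2.46% over all 1756 events. In PRCC(I371F) and PRCC(null) these shares were 14.3 and 8.12%. Their part in the calls was not tested.

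The alleles of each gene were compared directly in the same fit. Between PRCC(null) and PRCC(I371F), limma called 6 of the 1756 events, where 0.216% of all 5' events were called. The largest were on the X chromosome. Event A5.018527, plus strand, 1111805 and 1111851, 46 nt, was at 100% in each PRCC(null) library, against 25, 50 and 40% in PRCC(I371F), a difference of 61.7% (limma adjusted p = 0.000302), and at 20, 66.7 and 14.3% in the control. Events A5.018885 (29 nt) and A5.018884 (33 nt), minus strand, share the downstream site at 3610481 and have upstream sites 4 nt apart, at 3610510 and 3610514. Both were at 0% in each PRCC(null) library, against 100, 80 and 20% and 40, 50 and 20% in PRCC(I371F), and these calls (limma adjusted p = 0.0451 and 0.0424) were lost without any of the PRCC(I371F) or PRCC(null) libraries except, for A5.018885, PRCC(I371F) replicate 3 (adjusted p from 0.061 to 0.153). They were also lost with an offset of 0.05 in the log ratio (adjusted p = 0.0505 and 0.079).

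Between KIN17(M107I) and KIN17(K23N) limma called 0 of the 1756 events, where 0.00655% of all 5' events were called. At an unadjusted p under 0.05 there were 114 events (6.49%), against 5.19% of all. The 2 alleles of each gene differ in the numbered set of libraries as well.

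Some widely spaced pairs kept an even balance in all strains. A PSI between 20 and 80% in all 15 libraries was found at 38 events. Event A5.005312 on chromosome II, plus strand, 7681995 and 7682029, 34 nt, had the smallest range, 10.2%, with 59.8, 53.9 and 57.1% in KIN17(K23N), 58.6, 57.2 and 55.7% in KIN17(M107I), 54.7, 55.9 and 52% in PRCC(I371F) and 60.7, 62.3 and 57.6% in PRCC(null), against 57.4, 57.2 and 58.3% in the control. Event A5.017626 on chromosome V, plus strand, 15185206 and 15185255, 49 nt, had a mean over libraries of 67.1% and a range of 10.9%, and A5.006613 on chromosome II, plus strand, 12902427 and 12902467, 40 nt, a mean of 65.9% and a range of 12.2%.

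The study describes certain alternative 3'ss events whose upstream site is used more in germline. As a rough measure of such shifts, and not the study's own set, the mean use of the upstream site was taken over 996 alternative 3' events with sites 6 or 9 nt apart and a control mean between 5 and 95%. It was 48.8% ± 0.62 in PRCC(null), 45.1% ± 2.1 in PRCC(I371F), 48.3% ± 0.97 in KIN17(M107I) and 52.3% ± 1.7 in KIN17(K23N), against 41.9% ± 2.2 in the control (SD, n = 3 each). PRCC(I371F) overlapped the control, and the libraries of the other mutant strains lay above it. Its part in the events above was not tested.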

How the data were processed

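Mixed-stage mRNA libraries of 5 strains, 3 separate RNA isolations each, were sequenced by the authors. They aligned reads to WS220/ce10 with a modified STAR that accepts UU/AG introns, kept introns supported by 5 or more reads in the pooled samples, allowed up to 50 nt between alternative ends, and deposited for each form of an event a score, its PSI as a fraction times 1000 from junctionCounts. The processing notes also name cutadapt, Bowtie2 and SAMtools. A score pair of 1 and 999 was read as PSI 0 or 100%, which is an assumption. Reads per event are not in these tables, so depth is unknown and no count model was used.

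Events scored in all 15 libraries with sites 25 to 50 nt apart were kept. Values of log2((PSI + 0.01)/(1 - PSI + 0.01)), with PSI as a fraction, entered a single limma model (version 3.58.1, R 4.3.3) over all 15261 5' events and 15 libraries, with trend and robust options and Benjamini-Hochberg adjustment. Single events had an exact two-sided permutation test. Steps were run on simulated data with sampling noise alone and with changes only at events of intermediate control PSI. That run cannot show how often calls are false at events fixed on a single site in the control. Named were, per mutant strain, the 8 largest differences past both criteria (or up to 4 by the pairwise rule where fewer than 4 passed both), events past the rule in 3 or 4 strains, the 3 largest allele differences, the 3 steadiest events between 20 and 80%, and events that share a splice site with a listed close event. Events and lists were chosen with earlier results of these data known. Alternatives were other thresholds, offsets, scales and left-out libraries. The reference annotation at hand is of another build, and no gene name or coordinate was taken from it.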

Additional observations from a re-analysis of the deposited data

Results flagged for a closer look

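In 6 widely spaced events the change from the control differed between the 2 PRCC alleles by the test of the difference itself. PRCC(null) was higher than PRCC(I371F) by 61.7% at A5.018527 and by 28.4% at A5.000477 (limma adjusted p = 0.000302 and 0.0109). PRCC(null) minus PRCC(I371F) was -66.7% at A5.018885, -36.7% at A5.018884, -22.2% at A5.018506 and -20.1% at A5.014048 (limma adjusted p = 0.0451, 0.0424, 0.0257 and 0.0476). At A5.000477 on chromosome I, plus strand, 2622031 and 2622066, 35 nt, PSI was 100% in each PRCC(null) library, 78.9, 66.7 and 69.2% in PRCC(I371F) and 88.9, 100 and 100% in the control. At A5.018506 on chromosome X, plus strand, 877596 and 877643, 47 nt, it was 57.1, 57.1 and 35.7% in PRCC(null) and 66.7, 75 and 75% in PRCC(I371F), against 100% in each control library. Leaving out single libraries of these strains ended the call at A5.014048 (4 of 6 libraries, adjusted p from 0.116 to 0.146, and 0.129 with an offset of 0.001), at A5.018506 (PRCC(I371F) replicate 2 or 3, adjusted p = 0.0695 and 0.0718, and PRCC(null) replicate 3, where the difference fell under 20%), at A5.018884 (all 6) and at A5.018885 (5 of 6), and not at A5.018527 or A5.000477. With an offset of 0.001 in the log ratio the call at A5.018506 was lost too (limma adjusted p = 0.155). The 2 alleles also differ in the numbered set of libraries, which cannot be told apart from the allele. Groups of 3 libraries are too small for a test for single outlying libraries.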

How the results depend on the processing

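Counts by the pairwise rule depended on the libraries kept, since fewer differences then have to pass. Leaving out 1 library gave 45 to 53 events in PRCC(null) in place of 39, 34 to 45 in PRCC(I371F) in place of 28, 22 to 31 in KIN17(M107I) in place of 13 and 25 to 32 in KIN17(K23N) in place of 16. By limma the same gave 30 to 41 events in PRCC(null) in place of 38, 18 to 27 in PRCC(I371F) in place of 23, 0 to 3 in KIN17(M107I) in place of 2 and 2 to 7 in KIN17(K23N) in place of 3, and 3 to 7 in place of 6 between the PRCC alleles and 0 to 1 in place of 0 between the KIN17 alleles. Fits of only the 6 libraries compared gave 5 events in KIN17(M107I) and 14 in PRCC(I371F), and limma on PSI itself gave 0 in KIN17(M107I). With no threshold on the mean difference limma called 52 events in PRCC(I371F), 100 in PRCC(null) and 40 between the PRCC alleles.

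Chosen after seeing the data, the count of events with no further 5'ss within 4 nt was 12 in PRCC(null), 8 in PRCC(I371F), 6 in KIN17(M107I) and 7 in KIN17(K23N) by the rule. By limma it was 12, 6, 1 and 1, and 2 between the PRCC alleles. Counts by the rule stayed within 1.5 times with a smallest pairwise difference of 10 or 20%, with no threshold on the mean and with each pair of sites counted once. Leaving out constant events cannot change them, since such events never pass the rule. Mean PSI over the events was rerun only without constant events, which left it unchanged, and without 1 library of the strain. Leaving out 1 of 3 libraries can never move their mean by as much as the SD between them. These runs therefore cannot show how stable the mean is. Of 72 comparisons of single events called by limma, 41 kept the call and 31 lost it when 1 library was left out, none reversed, and 11 lost it at an offset of 0.001 and 7 at 0.05. Depth behind each PSI is unknown. No paired analysis was possible because library numbers are not shared between strains.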
